A study of Mus musculus with 6 samples.

Results

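The 10 genes described here encode the proteins that store, release and take back calcium in heart muscle cells: Ryr2, Atp2a2, Pln, Sln, Casq1, Casq2, Jph2, Trdn, Hrc and Slc8a1. They were picked by gene symbol, with earlier results of these data known, and each matched 1 of the 45792 genes in the count table. Whole hearts from mouse embryos at embryonic day 13.5 were sequenced, 3 from control embryos (WT) and 3 from embryos labelled as Tie2-driven Ino80 knockouts (KO), which the paper writes as Tie2Cre;Ino80 fl/fl. The labels give the strain as C57BL/6 for both groups, whereas the paper describes mixed backgrounds and counts as controls every genotype other than Tie2Cre;Ino80 fl/fl. The study used embryos of both sexes and did not sex them individually. Ino80 encodes the ATPase of a chromatin remodelling complex. Its floxed exon is removed by a Cre recombinase under the Tie2 promoter, which is active in endothelial and endocardial cells, not in cardiomyocytes. Descendants of cells with the deletion inherit it. The genes described here act mainly in cells that were not meant to lose Ino80.

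In a heart muscle cell, calcium that enters through the cell membrane opens ryanodine receptors, and much more calcium then leaves the sarcoplasmic reticulum and starts contraction. The pump SERCA returns calcium to this store, where calsequestrin holds it until the next beat. A membrane exchanger removes the rest from the cell. In the embryo this machinery is still being built up, and the store gains weight in the heartbeat as development proceeds.

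Library totals ran from 28948836 to 89675692 counts per heart. Levels are given as CPM, a gene's counts per M counts of its library after TMM scaling for composition, and fold changes compare mutant with control hearts in edgeR's quasi-likelihood test. An adjusted p is the Benjamini-Hochberg value over all 17125 genes tested. Ino80 itself was at 30.2, 31.6 and 32.7 CPM in control replicates 1 to 3 and at 36.5, 33.7 and 31.8 CPM in mutant replicates 1 to 3 (log2 fold change 0.11, adjusted p = 0.47). Counts over the whole gene thus did not show the deletion, and control and mutant are used here as the labels assign them. The controls differed among themselves. Control replicate 1 was the lowest control for 7 of the 10 genes and the lowest of all 6 hearts for 4 of them. Control replicate 3 was the highest control for 6 genes and control replicate 2 for 4. Summed cardiomyocyte markers, 15 genes that include Tnnt2, Actc1 and Myh7, ran from 29902 to 36835 CPM in control and from 29798 to 32081 CPM in mutant hearts, and none of the 15 was under 1 CPM in any heart. Because whole hearts were sequenced, fewer cardiomyocytes and less RNA per cardiomyocyte cannot be told apart.

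Casq2, Pln and Trdn were the members whose 3 mutant hearts all lay below the 3 control hearts. The cardiac calsequestrin Casq2 differed most, with a mutant mean 61.9% below the control mean. Phospholamban (Pln) was 31.2% lower and triadin (Trdn) 17.7% lower. The other 7 genes overlapped between the groups, and no member lay wholly above the controls. None of the 10 reached an adjusted p under 0.05 with edgeR, which called 0% of the 17125 genes tested (0 genes). At an unadjusted p under 0.05, 3 of the 10 were lower and 0 were higher, against 9.98% of all genes tested lower and 9.48% higher. Groups that did not overlap were seen for 12.8% of all genes tested in the lower direction and for 14.3% in the higher direction. DESeq2, the program used in the study, was run here on the genes tested with edgeR. It called 2 members lower and 0 higher at an adjusted p under 0.05. Of the 15459 genes with an adjusted p, 3.55% were lower and 2.88% were higher at that threshold. The paper reports fewer genes as significant in each direction, so these calls are not those of the study. The median log2 fold change was -0.22 over the 10 members, of which 7 were below 0 and 3 above, and -0.0017 over all genes tested. This median moved to -0.37 without control replicate 1 and to -0.073 without control replicate 3. Since the members were chosen with earlier results of these data known, these counts and medians only describe them.

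**Figure D1:**
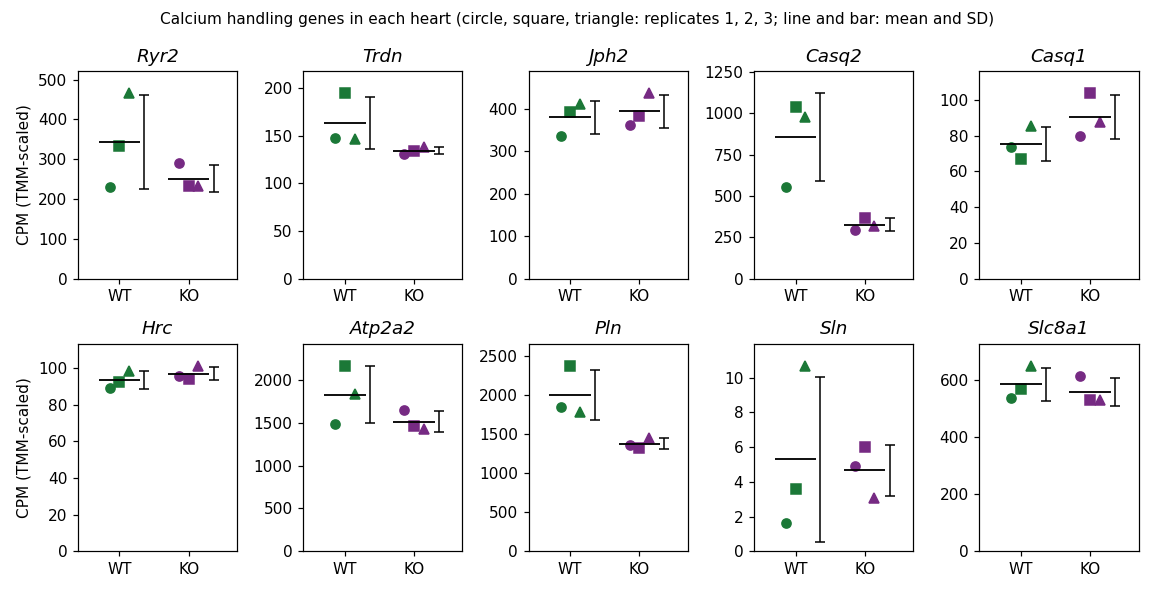
TMM-scaled CPM of each of the 10 genes (vertical axes, each from 0) in every control (WT, green) and mutant (KO, purple) heart, with circles, squares and triangles for replicates 1, 2 and 3, a line for the group mean and a bar for 1 SD. Mutant hearts lie below all control hearts for Casq2, Pln and Trdn, and the groups overlap in the other panels.

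The luminal calcium buffers were considered first. Casq2 (ENSMUSG00000027861.11) lies on the plus strand of chromosome 3 of GRCm38 from 102086415 to 102146514 and encodes the high-capacity calcium-binding protein of the cardiac sarcoplasmic reticulum, loss of which is known to cause stress-induced arrhythmia. Control replicates 1, 2 and 3 had 554, 1040 and 980 CPM of Casq2, and mutant replicates 1, 2 and 3 had 296, 369 and 317 CPM. Every mutant heart was below every control heart, and the mutant hearts were closer to each other than the controls were, among which replicate 1 was the lowest. The means were 858 ± 265 CPM (SD, n = 3) in control and 327 ± 37.8 CPM (SD, n = 3) in mutant hearts. The log2 fold change was -1.39 (standard error 0.22, 95% interval -1.90 to -0.88), or 0.381 of the control level with an interval from 0.267 to 0.544. The unadjusted p was 2.3e-04 and the adjusted p 0.069, and the gene ranked 57 by p among all genes tested. The adjusted p with DESeq2 was 5.1e-09, and over all 11 alternative fits it ran from 5.1e-09 to 0.24. Without control replicate 1 the log2 fold change was -1.63 and the adjusted p with edgeR 0.0017. In that fit 2.49% of the genes tested were lower at an adjusted p under 0.05. The log2 fold change stayed between -1.63 and -1.23 when any 1 heart was left out.

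Casq1 and Hrc, which encode the other luminal calcium buffers of the group, overlapped between control and mutant hearts. Casq1 (ENSMUSG00000007122.9, chromosome 1, 172209894 to 172219868, minus strand) encodes the calsequestrin best known from skeletal muscle. It was at 73.5, 67.1 and 85.7 CPM in control and at 79.9, 104 and 87.9 CPM in mutant replicates 1 to 3. Only mutant replicate 1 fell within the control range, and the means were 75.4 ± 9.44 and 90.5 ± 12.2 CPM (SD, n = 3 each). The log2 fold change of 0.26 had a 95% interval from -0.02 to 0.54 (adjusted p = 0.28). Of the 12 skeletal muscle markers examined, 6 were under 1 CPM in every heart, among them the myogenic regulators Myod1, Myog, Myf5 and Myf6. The summed list, which includes genes that embryonic heart also expresses, ran from 429 to 883 CPM in control and from 320 to 413 CPM in mutant hearts. Most of that sum was Ckm, the muscle creatine kinase, at 570 ± 231 CPM in control and 179 ± 17.5 CPM in mutant hearts (SD, n = 3 each). At an unadjusted p under 0.05, Ckm was the 1 gene of the list that was lower, and 2 were higher, Tnni2 (log2 fold change 1.004) and Mylpf (0.60), both without overlap. The median log2 fold change of the 7 skeletal muscle markers tested was 0.49, so the sum and the median differed in sign. That median was the value of Myog, which was under 1 CPM in every heart and overlapped between the groups. The part of these genes in the Casq1 values was not tested. Hrc (ENSMUSG00000038239.9, chromosome 7, 45335290 to 45338974, plus strand), the histidine-rich calcium-binding protein that also binds triadin, had 88.9, 92.5 and 98.6 CPM in control and 95.6, 94.2 and 101 CPM in mutant replicates 1 to 3. These ranges overlapped, with a log2 fold change of 0.06 and a 95% interval from -0.10 to 0.21 (adjusted p = 0.67).

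Because both counts of a ratio come from the same library, ratios within a heart do not depend on scaling. Control replicates 1, 2 and 3 held 0.133, 0.0645 and 0.0874 Casq1 counts for each Casq2 count, and mutant replicates 1, 2 and 3 held 0.270, 0.281 and 0.278. The ratio was thus nearly constant over the mutant hearts and 3.04-fold higher there, and even the highest control heart was below the lowest mutant heart. An exact two-sided permutation test of 3 against 3 hearts gave p = 0.1, the smallest it can give. The ratio of Hrc to Casq2 counts was 2.64-fold higher, that of Trdn to Casq2 2.11-fold and that of Ryr2 to Casq2 1.93-fold higher in mutant hearts, each without overlap (exact permutation p = 0.1, and 0.2 after adjustment over 10 ratios). These 4 ratios share the Casq2 counts and are not separate evidence.

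The sequences before the transcription starts of Casq2, Pln and Casq1 are shown because the first 2 had the smallest p values of the group and Casq1 is the second calsequestrin. Each is the 250 bases upstream of the RefSeq start in GRCm38.p6, read 5′ to 3′ on the gene's own strand. RefSeq windows matched 7 of the 10 members, and Atp2a2, Sln and Trdn had none. Capitals mark matches on either strand to a MEF2 site, to a CArG box, to TGATAA, which is bound by factors of the GATA family, and to the core of the TATA box, spelled TATAAA. The windows are chr3:102086165-102086414 (plus strand) for Casq2, chr10:53337436-53337685 (plus strand) for Pln and chr1:172219896-172220145 (minus strand) for Casq1.
Casq2: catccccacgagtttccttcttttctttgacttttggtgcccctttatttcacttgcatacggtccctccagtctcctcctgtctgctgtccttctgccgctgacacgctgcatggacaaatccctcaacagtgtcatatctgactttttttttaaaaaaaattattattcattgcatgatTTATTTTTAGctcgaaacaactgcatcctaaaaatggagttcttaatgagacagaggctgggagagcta
Pln: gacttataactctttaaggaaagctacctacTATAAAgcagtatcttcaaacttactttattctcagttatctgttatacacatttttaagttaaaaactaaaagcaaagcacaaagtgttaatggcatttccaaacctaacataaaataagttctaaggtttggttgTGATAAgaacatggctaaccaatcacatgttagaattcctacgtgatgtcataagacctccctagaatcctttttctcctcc
Casq1: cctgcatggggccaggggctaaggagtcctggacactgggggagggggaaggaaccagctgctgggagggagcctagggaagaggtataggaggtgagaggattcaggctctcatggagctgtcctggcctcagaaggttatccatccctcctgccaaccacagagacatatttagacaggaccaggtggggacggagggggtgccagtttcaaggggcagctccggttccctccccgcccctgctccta
Casq2 held the only MEF2 match among the 7 members, TTATTTTTAG from 69 to 60 bases before the start (positions -69 to -60). MEF2 factors are transcription activators of muscle genes, and a match occurred in 2.92% of 32851 promoter windows of this length. Pln held TGATAA at positions -82 to -77 and TATAAA at -219 to -214. The GATA letters occurred in 2 of the 7 members (Pln and Slc8a1) and in 7.94% of all windows, and the TATA letters in 1 member and 12.4% of all windows. No CArG box was found in the 7 members (1.47% of all windows) and no M-CAT element, CATTCC, which 12.6% of all windows hold. The E-box CANNTG, not capitalised here, occurred in all 7 members and in 66.2% of all windows. The MEF2 and CArG patterns can contain the TATA letters, although no 2 capitalised matches overlap in the sequences shown. These matches describe letters, and binding was not measured in these hearts.

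The pump and its inhibitors came next. Pln (ENSMUSG00000038583.10, chromosome 10, 53337667 to 53345987, plus strand) encodes phospholamban, the small membrane protein that holds back SERCA until it is phosphorylated. Pln was at 1847, 2369 and 1786 CPM in control replicates 1 to 3 and at 1360, 1317 and 1451 CPM in mutant replicates 1 to 3. All mutant hearts were below all controls, and control replicate 2 was the highest. The means were 2001 ± 321 and 1376 ± 68.4 CPM (SD, n = 3 each), a difference of -0.54 on the log2 scale (standard error 0.12, 95% interval -0.83 to -0.25, unadjusted p = 0.0023, adjusted p = 0.099). DESeq2 gave an adjusted p of 5.9e-04, and over the 11 alternatives the adjusted p ran from 5.9e-04 to 0.27. Pln lies within Cep85l, on the opposite strand, and shares 141 of its exonic bases with exons of that gene. A transcript annotated as sense intronic, Gm47644, covers 59.6% of the Pln exonic bases on the opposite strand. The sources used here do not say how reads on overlapping genes were assigned or whether strand was used, so the Pln counts may include reads of these neighbours or have lost shared reads. Cep85l was at 8.75 ± 0.44 CPM in control and 7.58 ± 0.21 CPM in mutant hearts (SD, n = 3 each), far below Pln.

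Atp2a2 (ENSMUSG00000029467.13, chromosome 5, 122453513 to 122502225, minus strand), which encodes the cardiac pump SERCA2, had 1487, 2157 and 1836 CPM in control and 1651, 1464 and 1425 CPM in mutant replicates 1 to 3. Only mutant replicates 2 and 3 were below all controls, by a small margin from control replicate 1. The log2 fold change was -0.27 (95% interval -0.60 to 0.05, adjusted p = 0.32). Sln (ENSMUSG00000042045.5, chromosome 9, 53850164 to 53854560, plus strand), which encodes sarcolipin, an inhibitor of SERCA found mainly in atria in the mature heart, was the least abundant member. Its levels were 1.66, 3.57 and 10.7 CPM in control and 4.93, 5.99 and 3.08 CPM in mutant replicates 1 to 3, from 63 to 456 counts a heart. The controls included both the lowest and the highest heart, and the 95% interval of its log2 fold change ran from -1.50 to 1.16 around -0.17 (adjusted p = 0.89), so that neither direction nor size could be read. Its sign turned without control replicate 3, where the log2 fold change was 0.86, and without mutant replicate 3, where it was 0.048. Beside Sln, 10 atrial markers were examined, all above 1 CPM. They summed to between 3470 and 3724 CPM in control and between 3849 and 4300 CPM in mutant hearts. Most of that sum was Pam and Myl4. Pam had means of 1759 CPM in control and 1739 CPM in mutant hearts, and Myl4 had 1230 and 1513 CPM. At an unadjusted p under 0.05, 5 of the 10 were higher and 0 lower, against 9.48% and 9.98% of all genes tested. The part of the atrial markers in the Sln values was not tested.

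There were 1.24, 1.10 and 0.97 Pln counts for each Atp2a2 count in control replicates 1 to 3 and 0.82, 0.90 and 1.02 in mutant replicates 1 to 3. The groups overlapped, since mutant replicate 3 exceeded control replicate 3 (0.83-fold, exact permutation p = 0.2). The difference in Pln was therefore not separated from that in Atp2a2 by the spread between hearts.

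The release channel and its junctional partners gave smaller differences than Casq2. Ryr2 (ENSMUSG00000021313.13, chromosome 13, 11553102 to 12106945, minus strand) encodes the cardiac ryanodine receptor, the channel through which the store is emptied. It was at 230, 334 and 466 CPM in control and at 290, 232 and 233 CPM in mutant replicates 1 to 3. Control replicate 1 was the lowest of the 6 hearts and control replicate 3 the highest, so the mutant hearts lay within the control range. The log2 fold change was -0.45 with a 95% interval from -0.97 to 0.08 (adjusted p = 0.32), and it ran from -0.67 without control replicate 1 to -0.16 without control replicate 3.

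Trdn (ENSMUSG00000019787.8, chromosome 10, 33080554 to 33476709, plus strand) encodes triadin, which ties calsequestrin to the ryanodine receptor. Control replicates 1 to 3 had 148, 195 and 147 CPM and mutant replicates 1 to 3 had 131, 134 and 138 CPM. The groups did not overlap, but control replicates 1 and 3 were close to the mutant hearts and control replicate 2 made most of the difference in means. The log2 fold change was -0.28 (standard error 0.11, 95% interval -0.54 to -0.02, unadjusted p = 0.038, adjusted p = 0.23), and -0.13 without control replicate 2. Jph2 (ENSMUSG00000017817.9, chromosome 2, 163336242 to 163397993, minus strand) encodes junctophilin 2, which holds the store close to the cell membrane. It was at 336, 392 and 412 CPM in control and at 362, 382 and 437 CPM in mutant replicates 1 to 3, with overlapping ranges. Its log2 fold change was 0.05 (95% interval -0.20 to 0.30, adjusted p = 0.81), and -0.028 without control replicate 1 and -0.024 without mutant replicate 3.

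Slc8a1 (ENSMUSG00000054640.12, chromosome 17, 81373105 to 81738377, minus strand) encodes the sodium-calcium exchanger of the cell membrane and is already active in the early embryonic heart. It was at 534, 568 and 648 CPM in control and at 611, 529 and 530 CPM in mutant replicates 1 to 3. The ranges overlapped, with a log2 fold change of -0.07 (95% interval -0.31 to 0.17, adjusted p = 0.74) that was 0.015 without control replicate 3. The ratio of Slc8a1 to Atp2a2 counts was 0.359, 0.263 and 0.353 in control and 0.370, 0.361 and 0.372 in mutant replicates 1 to 3. The mutant hearts were all above the controls, by 1.14-fold in the mean, although control replicates 1 and 3 were close to them (exact permutation p = 0.1, adjusted 0.2).

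**Figure D2:**
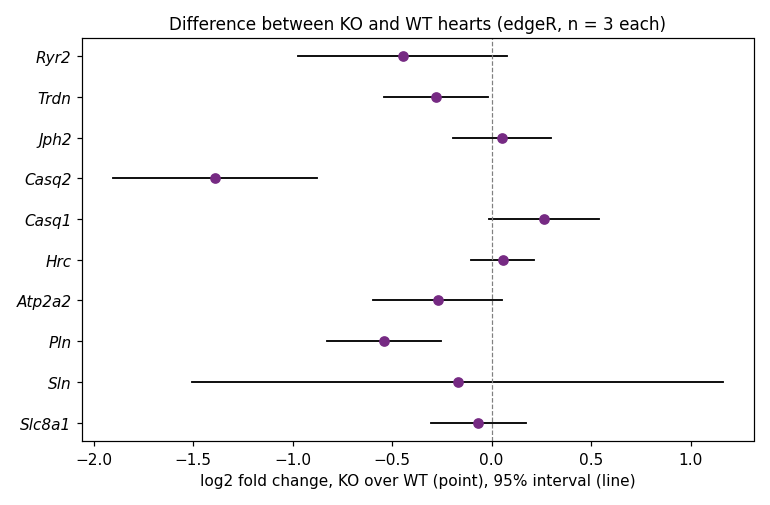
Log2 fold change of mutant over control hearts from edgeR (points, horizontal axis) with its 95% interval (lines) for each gene, 3 hearts a group, with a dashed line at no difference. The intervals of Casq2 (-1.90 to -0.88), Pln (-0.83 to -0.25) and Trdn (-0.54 to -0.02) lie below 0, and that of Sln is the widest.

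Levels of different genes were compared per kilobase of annotated exons. In control hearts the order by mean was Pln at 725 CPM per kilobase, Casq2 at 314, Atp2a2 at 300.4, Jph2 at 89.3, Casq1 at 38.7, Hrc at 36.4, Slc8a1 at 31.0, Trdn at 17.5, Ryr2 at 11.9 and Sln at 4.02. The control ranges of Casq2 and Atp2a2 overlapped, as did those of Casq1 and Hrc, of Trdn and Ryr2, and of Ryr2 and Sln, so these neighbours were not ordered beyond their spread. The control range of Pln, from 647 to 859 CPM per kilobase, lay above that of Casq2, from 202 to 380. In mutant hearts Casq2 came after Atp2a2, with 120 CPM per kilobase (108 to 135) against 249 (234 to 272) for Atp2a2, and these ranges did not overlap. The other 8 genes had the same rank in both groups. Counting only the longest transcript in place of all exons left 8 of the 10 control ranks as they were and exchanged Slc8a1 and Trdn.

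**Figure D3:**
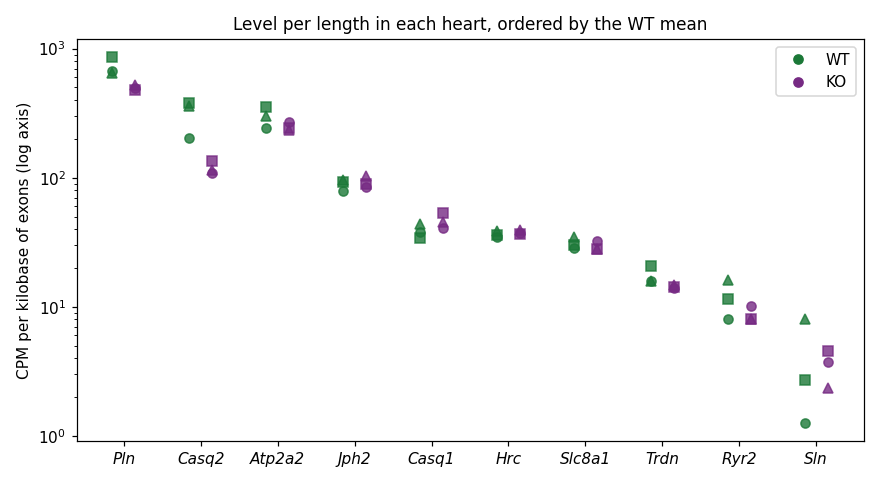
TMM-scaled CPM per kilobase of annotated exons (log axis) of the 10 genes in each control (green) and mutant (purple) heart, ordered by the control mean, with circles, squares and triangles for replicates 1, 2 and 3. Pln is highest and Sln lowest in both groups. The Casq2 values lie on both sides of the Atp2a2 values in control hearts and below them in mutant hearts.

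To set each gene against other heart muscle RNA of the same library, its counts were divided by the summed counts of the 15 cardiomyocyte markers. Of those 15 markers, 2 were lower and 1 higher in mutant hearts at an unadjusted p under 0.05. Their sum, the denominator of every ratio here, had a mean of 33910 CPM in control and 30749 CPM in mutant hearts. A lower sum raises each ratio. For each 10000 marker counts there were 185, 297 and 266 Casq2 counts in control and 99.3, 122 and 98.7 in mutant replicates 1 to 3. Casq2 remained below all controls in every mutant heart on this scale, at 43.3% of the control level. Pln had 618, 677 and 485 counts in control and 456, 434 and 452 counts in mutant replicates 1 to 3 for each 10000 marker counts, or 76.2% of the control level, again with no overlap. Casq1, Jph2 and Hrc lay wholly above the controls on this scale, at 132%, 114% and 114% of the control level, and the other 5 genes overlapped. For each of the 5 that did not overlap the exact two-sided permutation p was 0.1, the smallest possible, and 0.2 after adjustment over the 10 ratios, so none passed the threshold. Trdn overlapped on this scale, at 91.2% of the control level. In CPM, the groups had overlapped for Casq1, Jph2 and Hrc, with log2 fold changes of 0.26, 0.05 and 0.06. The share of all genes without overlap on this scale was not computed.

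**Figure D4:**
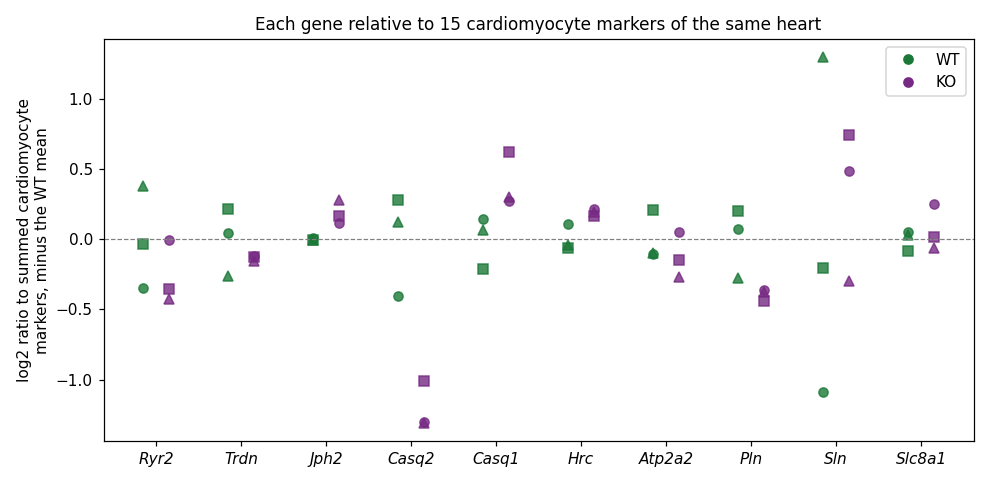
Log2 ratio of each gene to the summed counts of 15 cardiomyocyte markers of the same heart, minus the control mean (vertical axis), in control (green) and mutant (purple) hearts, with circles, squares and triangles for replicates 1, 2 and 3. Casq2 (mean difference -1.21) and Pln (-0.39) lie below all controls, and Casq1 (0.40), Jph2 (0.19) and Hrc (0.19) lie above them.

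Markers of other cells differed between hearts too. The 6 erythroid markers summed to 4119, 8049 and 18287 CPM in control replicates 1 to 3 and to 2750, 3009 and 5013 CPM in mutant replicates 1 to 3, with 3 of the 6 lower in mutant hearts at an unadjusted p under 0.05. The 8 endothelial markers ran from 805 to 1021 CPM in control and from 900 to 964 CPM in mutant hearts, with 0 of 8 below that p in either direction. The 7 ventricular markers ran from 4698 to 5460 CPM in control and from 4368 to 4921 CPM in mutant hearts, sums made mostly of Myl2 at 4606 and 4073 CPM in the means. At an unadjusted p under 0.05, 2 of the 7 were lower and 2 higher, and the median log2 fold change of the 7 was 0.05. The lower ones were Hey2 (-0.29) and Kcne1 (-0.58), and the higher ones Gja5 (0.54) and Mycn (0.23). Groups overlapped for Kcne1 and Mycn. The paper uses Hey2 and N-myc (Mycn) as compact layer markers and Cx40 (Gja5) as a trabecular marker, so this median describes neither layer. The sums were 1318 to 1570 CPM in control and 1224 to 1442 CPM in mutant hearts for the 7 smooth muscle markers, and 1193 to 1688 CPM and 1195 to 1597 CPM for the 8 epicardial and fibroblast markers. At that p, 3 smooth muscle markers were lower and 1 higher, and 1 epicardial or fibroblast marker was lower and 1 higher. Over all genes tested, 9.98% were lower and 9.48% higher at that p. All 6 liver markers were under 1 CPM in every heart. The part of these cells in the calcium gene values was not tested.

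The wider calcium machinery was examined with a list of 56 other genes, of which 55 were found and 51 were abundant enough to test. That list too was drawn up with earlier results of these data known. Strit1 was not analysed here. With edgeR, 12 of the 51 (23.5%) were lower and 6 (11.8%) higher in mutant hearts at an unadjusted p under 0.05, against 9.98% and 9.48% of all genes tested, and 0 passed an adjusted p of 0.05. Groups did not overlap for 8 genes (15.7%) in the lower and 6 (11.8%) in the higher direction, close to the 12.8% and 14.3% of all genes tested, and the median log2 fold change was -0.028. DESeq2 called 4 lower and 2 higher at an adjusted p under 0.05, where it called 3.55% and 2.88% of all genes with an adjusted p. The lower genes were Dhrs7c, S100a1, Cacna1g, Ppp1r3a, Atp2a3, Srl, Cav3, Akap6, Itpr2, Tmem38a, Asph and Camk2g, and the higher ones Atp2b4, Cacna1h, Cacna1d, Ppp1r1a, Tmem38b and Camk2a.

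Some of these genes encode proteins that lie in the store or act on it. S100a1 encodes a small calcium-binding protein that acts on both SERCA and the ryanodine receptor. It was at 57.0, 86.9 and 85.5 CPM in control and at 44.3, 45.7 and 51.8 CPM in mutant replicates 1 to 3. The groups did not overlap (log2 fold change -0.70, standard error 0.16, adjusted p = 0.096), and without control replicate 1 the adjusted p was 0.0061. Sarcalumenin (Srl), a luminal glycoprotein that binds calcium, was at 811, 847 and 1015 CPM in control and at 691, 622 and 664 CPM in mutant replicates 1 to 3, also without overlap (log2 fold change -0.44, standard error 0.11, adjusted p = 0.11). Tmem38a, a cation channel that balances charge as calcium leaves the store, differed by -0.34 on the log2 scale (adjusted p = 0.17, and 0.028 without control replicate 1). Tmem38b went the other way, at 15.3, 12.6 and 12.6 CPM in control and at 17.3, 17.4 and 15.9 CPM in mutant replicates 1 to 3. Its groups did not overlap (log2 fold change 0.32, edgeR adjusted p = 0.18). Dhrs7c, a reductase of the striated muscle sarcoplasmic reticulum, had 11.01, 43.8 and 13.5 CPM in control and 6.38, 6.51 and 6.05 CPM in mutant replicates 1 to 3. All mutant hearts were lower, but the size of the difference rested on control replicate 2: the log2 fold change was -1.84 with it and -0.95 without it. Its adjusted p of 0.12 was 0.036 without control replicate 1. In that fit 2.49% of all genes tested were lower at an adjusted p under 0.05. With another heart left out, the edgeR adjusted p reached 0.27 for S100a1, 0.34 for Tmem38a and 0.30 for Dhrs7c. Itpr2, an inositol trisphosphate receptor, differed by -0.35 (adjusted p = 0.14).

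Channel and pump genes of the cell membrane differed in both directions. Atp2b4, a plasma membrane calcium pump, was at 89.3, 71.5 and 85.3 CPM in control and at 120, 104 and 102 CPM in mutant replicates 1 to 3 (log2 fold change 0.40, standard error 0.10, adjusted p = 0.12). The T-type channel gene Cacna1h was at 72.4, 67.5 and 74.9 CPM in control and at 92.2, 83.4 and 101 CPM in mutant replicates 1 to 3 (log2 fold change 0.36, standard error 0.09, adjusted p = 0.10). All mutant hearts exceeded all controls for both genes. The L-type channel gene Cacna1d, known from pacemaker and atrial cells, differed by 0.35 in the same direction (adjusted p = 0.18). Another T-type channel gene, Cacna1g, had a log2 fold change of -0.51 with overlapping groups (unadjusted p = 0.023, adjusted p = 0.19). The L-type channel genes Cacna1c and Cacnb2 were at -0.13 and -0.14 on the log2 scale, the latter without overlap, and the pump gene Atp2b1 at 0.04, all with an unadjusted p above 0.05.

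**Figure D5:**
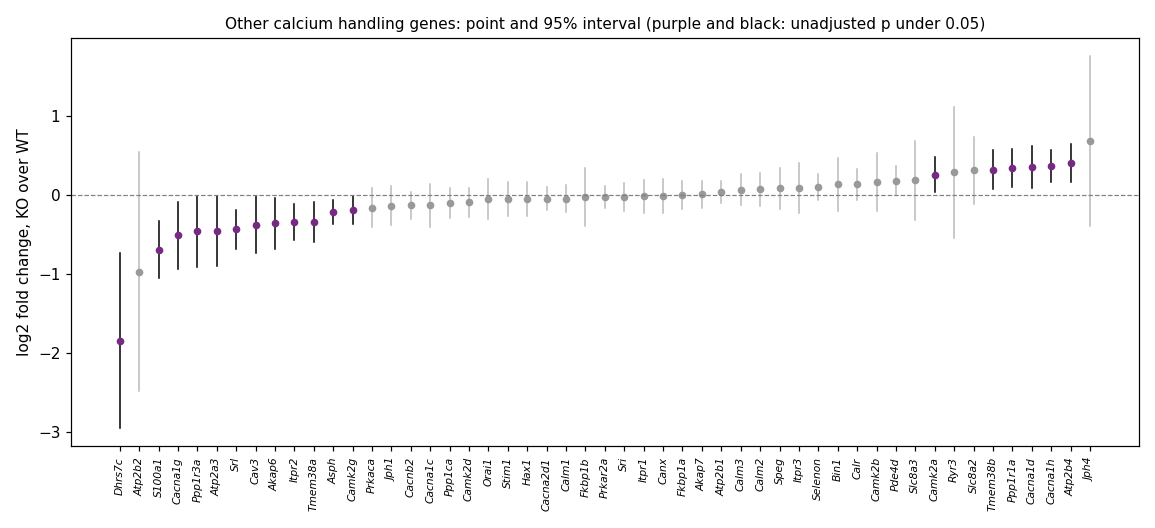
Log2 fold change of mutant over control hearts (points, vertical axis) with 95% intervals (lines) for the 51 other calcium handling genes tested, ordered by fold change, with the 12 lower and 6 higher genes at an unadjusted p under 0.05 in purple and black and the rest in grey. Dhrs7c lies lowest at -1.84.

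Close relatives of the members were mostly scarce. Ryr1 and Atp2a1, the ryanodine receptor and pump of skeletal muscle, were at 0.36 CPM or less in every heart and were removed by the filter on low counts. Ryr1 was at 0, 0.10 and 0.093 CPM in control and at 0.36, 0.28 and 0.17 CPM in mutant replicates 1 to 3, so every mutant heart exceeded every control. When every gene with a count was fitted, its adjusted p was 0.16 and that of Atp2a1 was 0.79. Ryr3 was at 7.69 ± 3.64 CPM in control and 9.33 ± 3.08 CPM in mutant hearts (SD, n = 3 each; log2 fold change 0.29, adjusted p = 0.68). Its fold change was near 0 without control replicate 2 and 0.69 without control replicate 3. Atp2a3, the SERCA of non-muscle cells, had a log2 fold change of -0.46 (unadjusted p = 0.043, adjusted p = 0.24) with overlapping groups. The log2 fold changes of Jph1, Slc8a2 and Slc8a3 were -0.14, 0.31 and 0.18, with overlapping groups and adjusted p from 0.37 to 0.66.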

How the data were processed

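Whole hearts from 3 control and 3 mutant embryos were analysed. The authors deposited raw counts per gene, without normalization: 76 bp paired-end reads were mapped with STAR 2.4.2a to GRCm38 with GENCODE vM6 and counted with summarizeOverlaps. The setting for reads on overlapping genes is not given in the sources used here. The deposited comparison table was used for gene symbols only. Its fold changes and p-values were not used.

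Columns were matched to samples by title, all rows were genes, and no pair of libraries was a duplicate (chi-square per degree of freedom at least 19.0). The counts were fitted with edgeR 4.0.16 in R 4.3.3: filterByExpr (minimum count 10, minimum total 15), TMM scaling, and a quasi-likelihood fit with condition as the only term across all genes, with Benjamini-Hochberg adjustment and a threshold of 0.05. The steps were tested on simulated data. Standard errors were derived from the fold change and its F statistic. Alternatives were DESeq2 1.42.0, RLE scaling, all genes with at least 1 count, genes with a mean of at least 1 CPM, the replicate number as a block, and leaving out each heart. DESeq2 was run on the genes that passed filterByExpr. Ratios were compared with exact permutation tests in SciPy 1.17.1. Coordinates and lengths came from GENCODE vM21 and promoters from RefSeq. Totals ran from 28948836 to 89675692 counts, and edgeR estimated a common biological coefficient of variation of 0.153. Precision was limited by the spread between hearts more than by depth. Intervals are for the difference between the groups and rest on the spread between these hearts.

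The members and lists were chosen with earlier results of these data known. Genes named were the members, Ino80, close relatives of members, and up to 8 other calcium genes with the largest fold change among those with an unadjusted p under 0.05 and no overlap. Cep85l, Tmem38b, Cacna1g, Cacna1c, Cacnb2 and Atp2b1 were named outside this rule. The muscle, atrial and ventricular markers given with values and the genes listed without values were also named outside it. So were the genes of the closing section, after their values were seen.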

Additional observations from a re-analysis of the deposited data

How the results depend on the processing

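With RLE scaling and with genes of at least 1 CPM, the counts of calls given here and the directions of all 10 members were the same. Members called lower at an adjusted p under 0.05 numbered 2 with DESeq2 and 2 when all genes with at least 1 count were fitted, in both cases Casq2 and Pln, and from 0 to 1 when 1 heart was left out, Casq2 without control replicate 1. Over all genes, 549 were lower and 445 higher with DESeq2, 341 lower and 262 higher when every gene with a count was fitted, and from 0 to 431 lower and from 0 to 320 higher when 1 heart was left out, most without control replicate 1. Members lower at an unadjusted p under 0.05 numbered 5 with DESeq2, which put 10.2% of all genes there, and from 2 to 5 without 1 heart, where between 6.75% and 11.5% of all genes were lower. The 5 without control replicate 1 stood beside 11.5% of all genes. Their median log2 fold change ran from -0.37 to -0.073 without 1 heart. Of the other calcium genes, 6 were called with DESeq2, 5 when every gene with a count was fitted, and from 0 to 3 without 1 heart. At an unadjusted p under 0.05, from 6 to 14 of them were lower and from 3 to 7 higher without 1 heart. In those fits, from 6.75% to 11.5% of all genes were lower and from 6.76% to 11.3% higher. The sign turned when 1 heart was left out for Sln, from -0.60 to 0.86, for Jph2, from -0.028 to 0.11, and for Slc8a1, from -0.14 to 0.015. The cause was not tested.

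Hearts with the same replicate number did not deviate together (correlations of their deviations 0.024, -0.084 and -0.073). With 3 hearts a group, these correlations cannot decide whether the numbers pair hearts. The paper states that controls were litter mates but does not say which of these hearts shared a litter. With the replicate block, 13 genes were lower and 1 higher, no member was called, and the Sln log2 fold change was 0.20. No heart correlated best with the heart of its own number.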

Other observations

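Genes that act on calcium handling from outside the sarcoplasmic reticulum were listed after the results for the other calcium genes had been seen. Beta-adrenergic signalling, the pathway that leads to phosphorylation of phospholamban, was covered by 14 genes. With edgeR, 3 (21.4%) were lower and 0 higher in mutant hearts at an unadjusted p under 0.05. Over all genes tested, 9.98% were lower and 9.48% higher, and 0 of the 14 passed an adjusted p of 0.05. Groups did not overlap for 4 (28.6%) in the lower and 1 (7.14%) in the higher direction, against 12.8% and 14.3% of all genes tested. With DESeq2, 3.55% of all genes with an adjusted p were called lower at an adjusted p under 0.05. Of the 14, 1 was called lower, Adcy5. This adenylyl cyclase was at 136, 161 and 175 CPM in control and at 114, 129 and 120 CPM in mutant replicates 1 to 3, without overlap (log2 fold change -0.38, standard error 0.10, edgeR adjusted p = 0.13). The phosphodiesterase Pde4b was at 54.1, 50.5 and 50.9 CPM in control and at 47.1, 44.2 and 44.6 CPM in mutant replicates 1 to 3, also without overlap (log2 fold change -0.19, adjusted p = 0.20). Adcy9 differed by -0.42, and its groups overlapped (adjusted p = 0.24). The receptor gene Adrb1 had a log2 fold change of -0.09, with overlapping groups.

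Of 12 genes of mitochondrial calcium uptake and release, 0 were lower and 0 higher at an unadjusted p under 0.05 with edgeR. Over all genes tested, these shares were 9.98% and 9.48%. Groups did not overlap for 1 of the 12 (8.33%) in the lower and 0 in the higher direction, against 12.8% and 14.3% of all genes tested. DESeq2 called 0 of the 12 at an adjusted p under 0.05. The uniporter gene Mcu had a log2 fold change of 0.03 (adjusted p = 0.85), with overlapping groups.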
